A study of Mus musculus with 18 samples.

Results

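The peaks described here are those of 9 chromatin immunoprecipitation sequencing (ChIP-seq) lists that lie in 6 windows of 1 Mb of the mouse genome (build mm9). Each window held 10 or more peaks of the library titled 4a3_DA1, whose labels name an Hnf4alpha antibody. The windows run from 101 to 102 Mb on chromosome 11, from 152 to 153 Mb on chromosome 2, from 21 to 22 Mb on chromosome 10, from 143 to 144 Mb on chromosome 5, from 34 to 35 Mb on chromosome 17 and from 55 to 56 Mb on chromosome 12. A peak belonged to a window when its midpoint lay in it. This gave 414 of the 60701 peaks in all 9 lists, 78 from 4a3_DA1 and 336 from 8 lists of Foxa antibodies. The windows were selected on the number of 4a3_DA1 peaks they held, a measured value, so the density of those peaks there is a description and not a result.

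All libraries came from induced hepatocyte-like (iHep) cells, made from fibroblasts of C57BL/6 mouse embryos at day 13.5 post coitum by viral transduction of Hnf4alpha and a Foxa protein. The 4a3_DA1 library is labelled as cells given Foxa1 and Hnf4alpha, while its title follows the naming of the Foxa3 constructs, so its Foxa protein is uncertain. In the other 8 libraries the Foxa protein was a chimera, and every culture also carried Hnf4alpha. In 4 chimeras the N-terminal domain was that of Foxa3, and the Foxa3 antibody was used: Foxa3 with the C-terminal domain of Foxa1 (Foxa3-C1) or of Foxa2 (Foxa3-C2), Foxa2 with the N-terminal domain of Foxa3 (Foxa2-N3), and Foxa1 with that same domain (Foxa1-N3). In the other 4 the C-terminal domain was that of Foxa3: Foxa3 with the N-terminal domain of Foxa1 (Foxa3-N1, Foxa1 antibody) or of Foxa2 (Foxa3-N2, Foxa2 antibody), Foxa2 with the Foxa3 C-terminal domain (Foxa2-C3, Foxa2 antibody) and Foxa1 with it (Foxa1-C3, Foxa1 antibody). Terminal domain and antibody therefore cannot be told apart between these sides. Each library is a single sample with no replicate, and the labels do not say whether converted cells were purified. Peak lists hold no expression marker by which the labelled cell type could be checked. The 9 input libraries of the series are not analysed here.

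Foxa proteins are forkhead transcription factors that can bind sites within compact chromatin and help to open liver enhancers. Hnf4alpha is a nuclear receptor that binds DNA as a dimer and drives many hepatocyte genes. Both kinds of factor are known to bind many of the same liver enhancers. A peak is a stretch where sequenced fragments pulled down by the antibody pile up above the level a peak caller takes as background.

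The 4a3_DA1 list was the shortest of the 9. It held 698 peaks with scores, as given by the authors, from 5.16 to 30.3. What the score measures is unknown, so it serves to rank peaks within a list, with rank 1 the strongest, and 1 alternative cut was set on the scores of the 8 Foxa lists pooled. The 4a3_DA1 scores took 232 distinct values. Sequencing depth is unknown. Around the threshold that chose the windows, the chromosome 12 window held 10 of its peaks and the chromosome 17 window 11, while the next densest window, on chromosome 11 from 87 to 88 Mb, held 9 and was left out. The Foxa lists ran from 956 peaks in Foxa1-N3 to 16543 in Foxa3-N2. No gene is named, because the gene annotation at hand is on another build.

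Within each window the 4a3_DA1 peaks were packed into a small fraction of the sequence. When peaks separated by at most 5000 bp were joined, the 78 peaks formed 12 runs that together spanned 36.4 kb. The longest run was 9219 bp. The windows on chromosomes 10 and 17 held 1 run each, those on chromosomes 2 and 5 held 2, and those on chromosomes 11 and 12 held 3. The median gap between neighbouring peaks of a run was 201.5 bp over 66 gaps. These peaks had a median width of 151 bp, against 113 bp for the 620 peaks of the list outside the windows, and a median score of 10.8, against 9.15 outside. The 4 strongest peaks of the whole list lay in the windows, on chromosome 11 (ranks 1 and 2), chromosome 5 (rank 3) and chromosome 10 (rank 4). No others of the top 10 did, and of the 69 peaks in the top 10% of the list, 12 did. The windows held 11.2% of the whole list. At the other end, peaks of rank 689 on chromosomes 12 and 17 also lay in the windows, so these held both strong and weak peaks of this list.

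**Figure D1:**
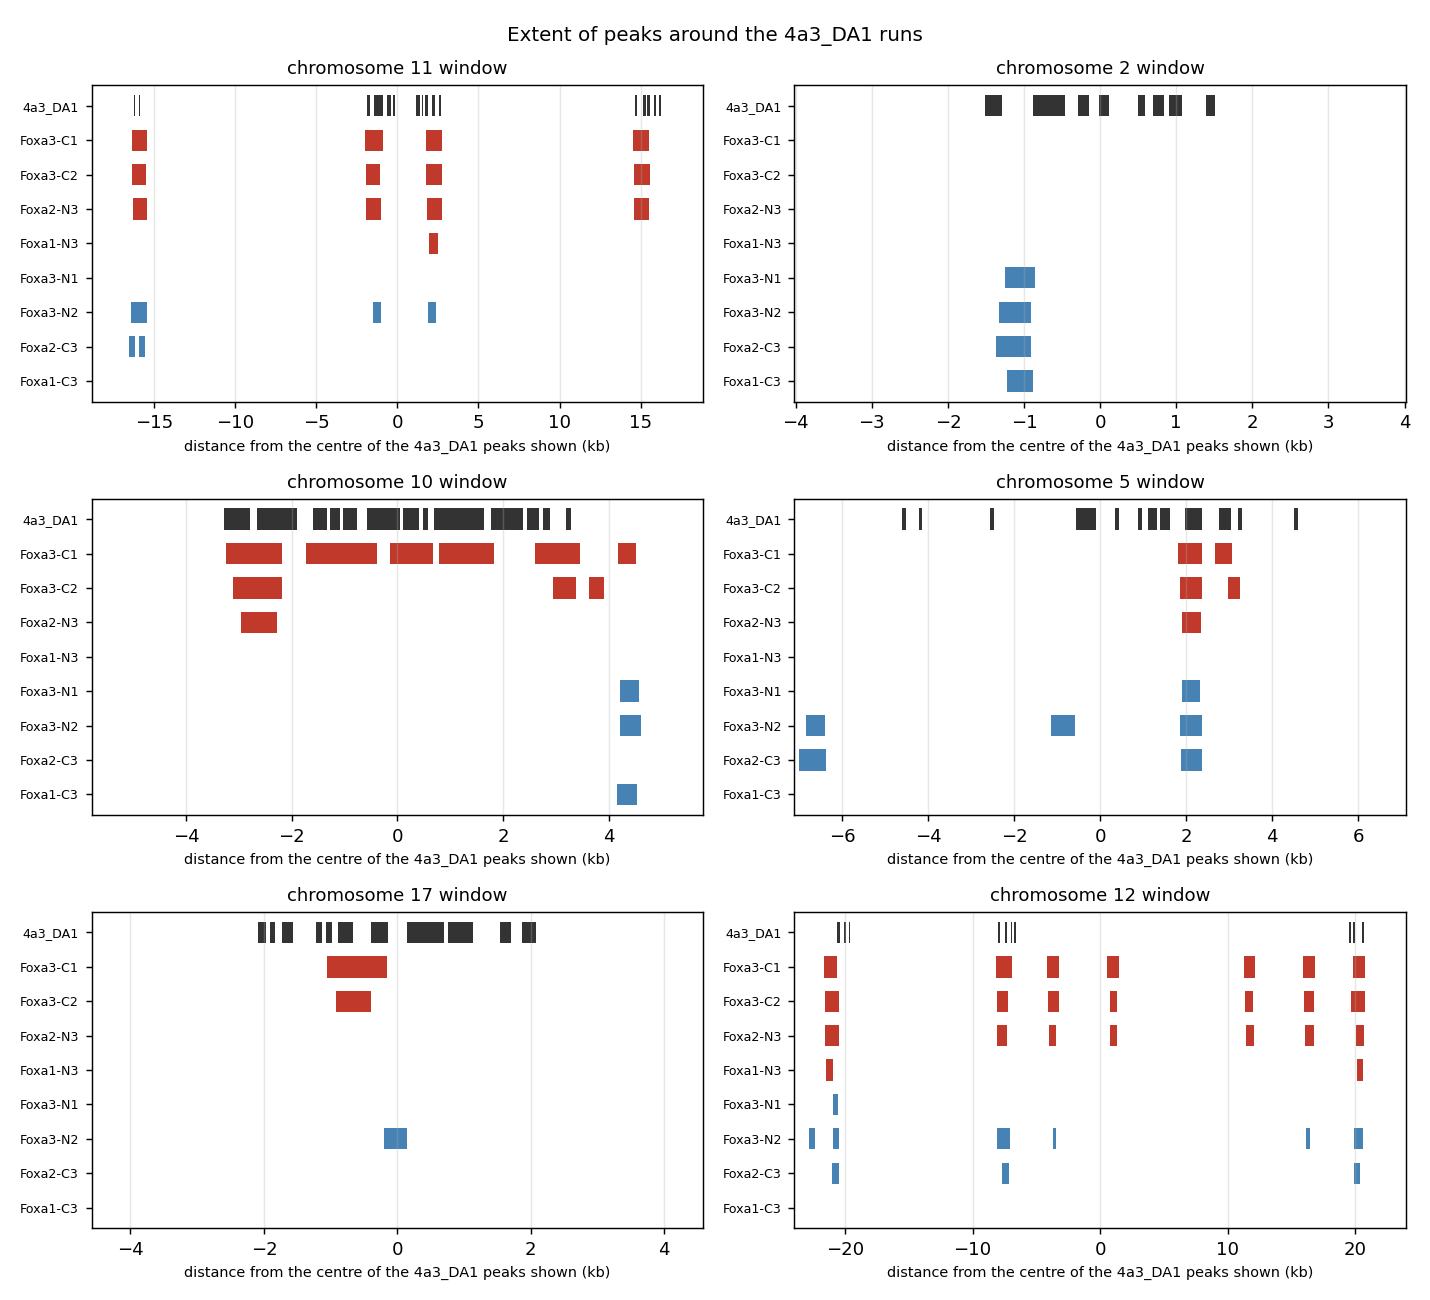
Horizontal bars give the extent of each peak (distance from the centre of the 4a3_DA1 peaks shown, in kb) for 4a3_DA1 (black), the 4 libraries with the Foxa3 N-terminal domain (red) and the 4 with the Foxa3 C-terminal domain (blue). For chromosomes 2 and 5 the run with more peaks is drawn. On chromosome 10 the Foxa3-C1 peaks follow the run along most of its length, on chromosomes 11 and 12 wide Foxa peaks stand at separate places, and on chromosomes 2 and 17 most 4a3_DA1 peaks have no Foxa peak under them.

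On chromosome 11 the 4a3_DA1 peaks coincided with some of the strongest peaks of Foxa3-C1 and Foxa3-C2. The 16 peaks of 4a3_DA1 lay between 101488508 and 101520962 in runs of 2, 9 and 5 peaks. The middle run (101502891 to 101507426) held the strongest peak of the whole list (101507300 to 101507426, score 30.3) and the second strongest (101502891 to 101503063, score 28.8). Of the 16, 10 met a Foxa peak, that is, shared 1 bp or more with it, where 40.8% of the whole 4a3_DA1 list did. All 10 met peaks of Foxa3-C1, Foxa3-C2 and Foxa2-N3 alike. Foxa3-N2 was met by 5, Foxa2-C3 by 2, Foxa1-N3 by 1, and Foxa3-N1 and Foxa1-C3 by 0.

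The Foxa peaks involved stood at 4 places. At the first place (101488192 to 101489302) the peak had rank 38 of 7533 in Foxa3-C1, rank 58 of 3594 in Foxa3-C2 and rank 461 of 5230 in Foxa2-N3. Foxa3-N2 had 1 peak there (rank 11826 of 16543) and Foxa2-C3 had 2 (ranks 12529 and 12958 of 13715), all towards the weak end of those lists. At the second place (101502730 to 101503829) the ranks were 12 in Foxa3-C1, 27 in Foxa3-C2 and 83 in Foxa2-N3, and 15105 in Foxa3-N2. The Foxa3-C1 peak there, 1100 bp wide with a score of 147.8, was the highest-ranking Foxa3-C1 peak of all 6 windows. At the third place (101506484 to 101507502) Foxa3-C1 had rank 54, Foxa3-C2 rank 36, Foxa2-N3 rank 147 and Foxa1-N3 rank 561 of 956, against rank 15698 in Foxa3-N2. The fourth place (101519267 to 101520275) carried peaks of Foxa3-C1 (rank 103), Foxa3-C2 (rank 40) and Foxa2-N3 (rank 443) and of no other list. The peaks of these 3 lists were 845 to 1100 bp wide at all 4 places. The Foxa1-C3 and Foxa3-N1 lists had no peak at any of them, although they had 3 and 5 peaks elsewhere in the window. The remaining 6 of the 16 4a3_DA1 peaks lay between or beside these places and met no Foxa peak.

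The chromosome 12 window had the same kind of wide Foxa peaks, and more of them than 4a3_DA1 runs. The 10 peaks of 4a3_DA1 lay in runs of 3, 4 and 3 between 55798450 and 55839770. The highest-scoring one (55811123 to 55811239, score 21.1, rank 16) met peaks of 4 Foxa lists. The one that met the most lists, 6, was at 55798450 to 55798740 (rank 60). In all, 6 of the 10 met a Foxa peak: 6 met Foxa3-C1, 5 each met Foxa3-C2 and Foxa3-N2, 4 met Foxa2-N3, 3 met Foxa2-C3, 1 each met Foxa1-N3 and Foxa3-N1, and 0 met Foxa1-C3.

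Over this stretch of the chromosome 12 window, Foxa3-C1 had 7 peaks wider than 800 bp within 20 kb of a 4a3_DA1 peak, a width limit chosen after the values were seen. All 7 places also carried a Foxa3-C2 and a Foxa2-N3 peak, but only 3 met a 4a3_DA1 peak. The starts of neighbouring places were 13.5, 3.97, 4.74, 10.7, 4.65 and 3.80 kb apart. The 3 places with 4a3_DA1 peaks ranked highest in Foxa3-C1 and Foxa3-C2 but not in Foxa2-N3. At 55797473 to 55798658 Foxa3-C1 had rank 51, Foxa3-C2 rank 39 and Foxa2-N3 rank 663 (12.7% of its list). Foxa3-N1 had rank 4628 (60.7%), Foxa3-N2 rank 2864 (17.3%) and Foxa2-C3 rank 2857 (20.8%). A Foxa1-N3 peak of rank 384 lay there too but shared no base with a 4a3_DA1 peak. At 55810959 to 55812179 the ranks were 52 in Foxa3-C1, 21 in Foxa3-C2 and 1065 in Foxa2-N3 (20.4% of its list). They were 2378 in Foxa3-N2 (14.4%) and 8690 in Foxa2-C3 (63.4%), so Foxa3-N2 stood higher in its list than Foxa2-N3. At 55838817 to 55839895 Foxa3-C2 had rank 6, with a score of 126.2, and Foxa3-C1 rank 30, while Foxa2-N3 had rank 2874. Foxa1-N3 had a peak there too (rank 767), as had Foxa3-N2 (5612) and Foxa2-C3 (8029). As a share of the list, Foxa2-N3 stood at 55.0%, Foxa3-N2 at 33.9% and Foxa2-C3 at 58.5%.

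At the 4 places of chromosome 12 without a 4a3_DA1 peak the ranks ran from 121 to 851 in Foxa3-C1, from 181 to 625 in Foxa3-C2 and from 1915 to 2646 in Foxa2-N3. They began at 55814928, 55819665, 55830365 and 55835013. Foxa3-N2 had weak peaks at 2 of them (ranks 13612 and 9850), and no other list had any. Of the 7 places, 4a3_DA1 had peaks only at the 3 where Foxa3-C1 and Foxa3-C2 ranked highest.

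Over the 11 wide places of chromosomes 11 and 12 together, Foxa3-C1 and Foxa3-C2 had the highest median ranks as a share of their lists. Foxa3-C1 had a median rank of 54 (ranks 12 to 851), Foxa3-C2 of 40 (6 to 625) and Foxa2-N3 of 1065 (83 to 2874), each with a peak at all 11. Foxa1-N3 had peaks at 3 places (ranks 384 to 767), at 40.2 to 80.2% of its list. On the side of the Foxa3 C-terminal domain, Foxa3-N2 had peaks at 8 places (ranks 2378 to 15698), Foxa2-C3 at 4 (2857 to 12958), Foxa3-N1 at 1 (rank 4628) and Foxa1-C3 at 0. Expressed as a share of the list, the median rank was the top 0.717% in Foxa3-C1 and 1.11% in Foxa3-C2. It was 20.4% in Foxa2-N3, 65.5% in Foxa3-N2 and 61.0% in Foxa2-C3, counting the stronger peak where a place held 2. On chromosome 11 this median was 5.64% in Foxa2-N3 and 91.3% in Foxa3-N2, but on chromosome 12 it was 43.3% and 33.9%. The 2 terminal layouts thus did not separate on chromosome 12. Foxa3-C1 peaks chose these places, with a width limit set after the values were seen. No library's values there carry a test, and they are given as a description.

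**Figure D2:**
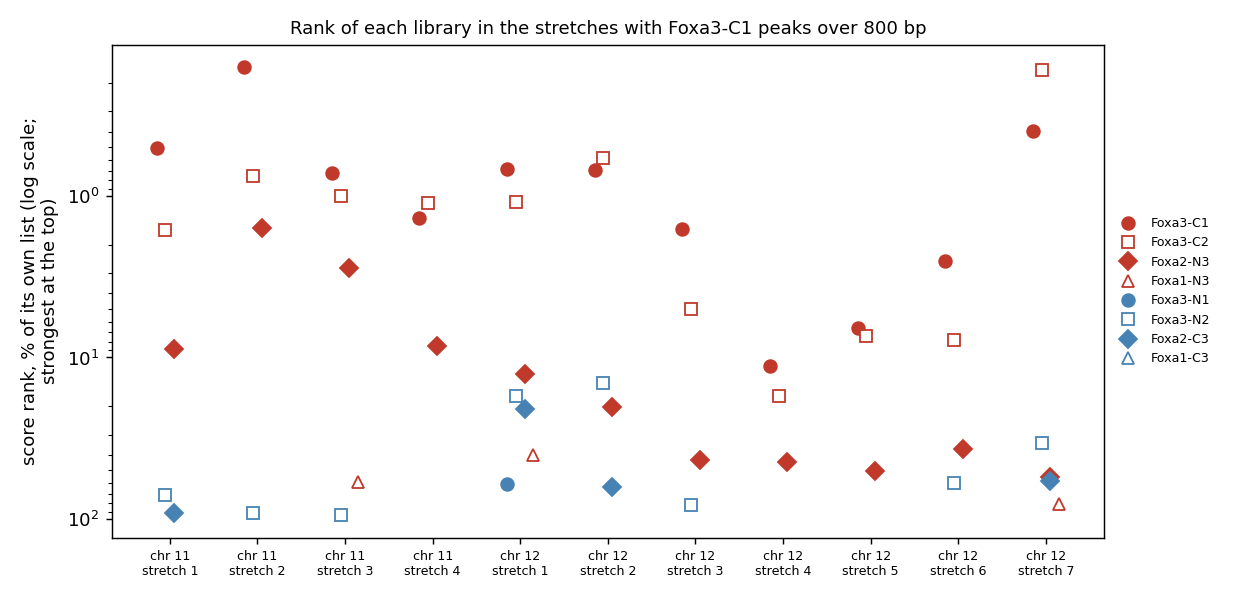
Each symbol is the score rank of 1 library at 1 of the 11 wide places, as a percent of that library's list on a log scale with the strongest at the top (red, Foxa3 N-terminal domain; blue, Foxa3 C-terminal domain; no symbol, no peak). Foxa3-C1 and Foxa3-C2 lie between the top 0.159% and 17.4% of their lists, and Foxa3-N2 between 14.4% and 94.9%.

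On chromosome 10 a single run of 4a3_DA1 peaks was followed by Foxa3-C1 peaks that were wide but weak. The 13 peaks of the run (21713895 to 21720465) covered 76.1% of its 6571 bp, the densest of the runs with more than 1 peak. The strongest (21714519 to 21715285, 767 bp, score 27.5) had rank 4 of the list. All 13 met a Foxa peak, and all 13 met Foxa3-C1, whose 5 peaks covered 75.0% of the run. Those 5 peaks were 820 to 1335 bp wide but ranked between 1412 and 7121 of 7533, in contrast to ranks of 103 or better at the places on chromosome 11. Foxa3-C2 had 2 peaks in the run (ranks 1279 and 2323), met by 3 of the 13. Foxa2-N3 had 1 (rank 3979), met by 2. Foxa1-N3 and the 4 libraries with the Foxa3 C-terminal domain had none in the run, although those 4 had 4 to 19 peaks elsewhere in the window. Relative to the length of its list, the strongest Foxa peak of the window lay away from the run, at 21632421 to 21632920 in Foxa3-C2 (rank 48).

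The chromosome 5 window held 1 strong 4a3_DA1 peak standing alone and 1 loose run of weaker ones. The lone peak (143667847 to 143668383, 537 bp, score 27.9, rank 3) met Foxa3-C1 (rank 1137) and Foxa3-C2 (rank 543) and no other list. The run of 12 peaks lay 82875 bp before it (143575753 to 143584971), and its peaks covered 24.7% of its length. One of them (143582332 to 143582739, rank 204) met 6 Foxa lists. At that place Foxa3-C2 had rank 772, Foxa3-C1 5343 and Foxa2-N3 3875, and Foxa3-N1 had rank 3524, Foxa3-N2 3059 and Foxa2-C3 4217. Foxa1-N3 and Foxa1-C3 had no peak there. In all, 4 of the 13 met a Foxa peak (30.8%, against 40.8% of the whole list). The strongest Foxa peak of this window relative to its list, 552 bp wide in Foxa3-N2 (143579220 to 143579771, rank 1541), lay within the run without meeting any of its peaks.

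On chromosomes 2 and 17 most 4a3_DA1 peaks met no Foxa peak, as was true of the whole list, of which 40.8% met one. The 15 peaks on chromosome 2 formed runs of 7 (152562036 to 152564834) and 8 (152653233 to 152656265), and their best rank was 103 (152563130 to 152563308), a peak that met no Foxa list. Of the 15, 3 met one. The first peak of the first run met Foxa3-C1 (rank 6696 of 7533). In the second run 1 peak met Foxa2-C3 (rank 7286) and Foxa3-N2 (rank 7749), and its neighbour met Foxa3-N1 (rank 4834). These 2 were the only 4a3_DA1 peaks of the 6 windows that met a list of the Foxa1 or Foxa2 antibody and none of the Foxa3 antibody. The strongest Foxa peak of the window relative to its list (152640076 to 152640690, Foxa3-N2, rank 367) lay more than 5 kb from any 4a3_DA1 peak. On chromosome 17 the 11 peaks formed 1 run (34254848 to 34259014) that they covered to 55.7%. The strongest (34256544 to 34256789, rank 34) met Foxa3-C1 (rank 2583) and Foxa3-N2 (rank 15578), and 3 of the 11 met a Foxa peak. The Foxa3-C1 peak was 899 bp wide and met all 3. Foxa3-C2 had 1 peak in the run (rank 2323), and the other 5 lists had none.

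Taken over the 6 windows, 39 of the 78 4a3_DA1 peaks met a peak of at least 1 Foxa list (50.0%, 95% Wilson interval 39.2 to 60.8%). Over the whole 4a3_DA1 list the share was 40.8%, and the interval includes that background. The share was 39.7% outside the windows (35.9 to 43.6%). Lists of the Foxa3 antibody were met by 37 of the 78 (47.4%; 34.8% over the whole list), and lists of the Foxa1 or Foxa2 antibody by 14 (17.9%; 15.8% over the whole list). Both kinds were met by 12, only the Foxa3 antibody lists by 25 and only the others by 2. A peak met 1 list in 15 cases, 2 or 3 lists in 13 and 4 to 6 lists in 11. Intervals given here cover counting error only, and neighbouring peaks that meet the same Foxa peak are not separate sites.

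By library, Foxa3-C1 was met by 36 of the 78 peaks (46.2%; 32.4% over the whole list), Foxa3-C2 by 23 (29.5%; 17.2%), Foxa2-N3 by 17 (21.8%; 12.6%) and Foxa1-N3 by 2 (2.56%; 1.58%). Foxa3-N2 was met by 13 (16.7%; 15.2%), Foxa2-C3 by 7 (8.97%; 7.88%), Foxa3-N1 by 3 (3.85%; 3.87%) and Foxa1-C3 by 0 (1.58% over the whole list; Wilson upper bound 4.69% in the windows). The intervals inside and outside the windows did not overlap for Foxa3-C1 (35.5 to 57.1% inside, 27.1 to 34.4% outside) and Foxa3-C2 (lower bound 20.5% inside, upper bound 18.7% outside). For Foxa2-N3 they overlapped at their ends (14.1 to 32.2% inside, 9.18 to 14.2% outside). For the other 5 lists the share outside lay within the interval inside. This difference was not tested, because peaks of 1 library are not replicates. The 36 peaks met 17 Foxa3-C1 peaks, and 13 of the 36 lay in the single run on chromosome 10. The 23 met 13 Foxa3-C2 peaks. The intervals count neighbouring peaks as separate, so intervals that do not overlap are no test here. The counts did not follow list length: Foxa3-N2, with 16543 peaks, was met by 13 of the 78, and Foxa3-C1, with 7533, by 36. A wider peak covers more sequence, and the part of peak width in these counts was not tested.

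**Figure D3:**
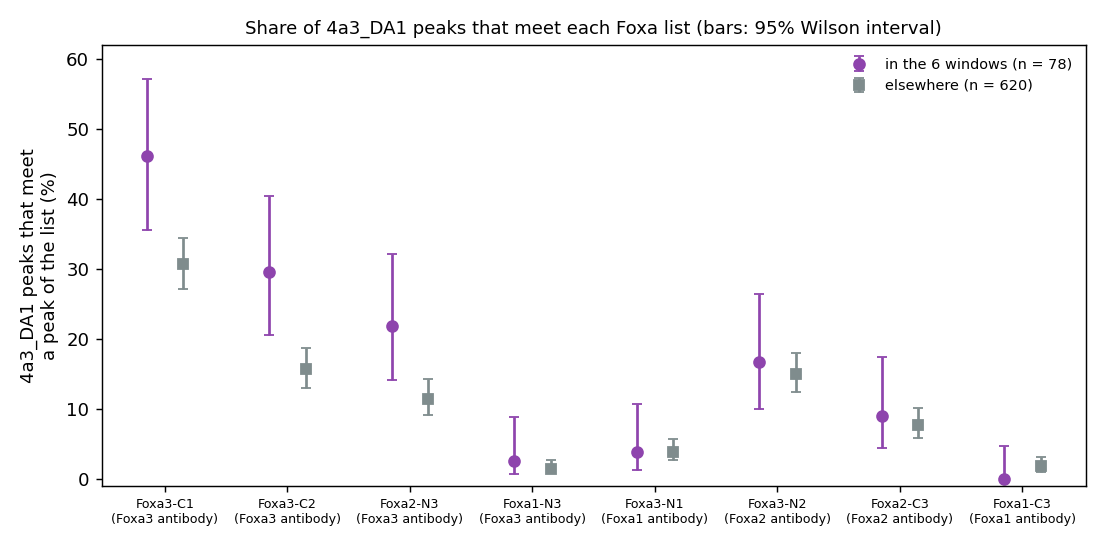
Points give the percent of 4a3_DA1 peaks that met a peak of each Foxa list, for the 78 peaks in the 6 windows (circles) and the 620 elsewhere (squares), with 95% Wilson intervals as bars. The highest share is that of Foxa3-C1 in the windows, 46.2%, and for Foxa1-C3 it is 0 in the windows.

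Seen from the Foxa lists, 60 of the 336 Foxa peaks in the windows met a 4a3_DA1 peak (17.9%; 0.85% over all 60003 Foxa peaks). The rule picked the windows for many 4a3_DA1 peaks, which raises this share, so the excess is not a result. The share differed between libraries. It was 40.6% in Foxa3-C2 (13 of 32; 2.53% over its whole list), 30.4% in Foxa3-C1 (17 of 56; 2.19%) and 23.7% in Foxa2-N3 (9 of 38; 1.19%) with 2 of 5 peaks in Foxa1-N3 (0.941%). It was 10.8% in Foxa3-N2 (9 of 83; 0.586%), 9.72% in Foxa2-C3 (7 of 72; 0.372%), 9.09% in Foxa3-N1 (3 of 33; 0.328%) and 0% in Foxa1-C3 (0 of 17; 0.208%). The 4 libraries with the Foxa3 N-terminal domain thus lay between 23.7 and 40.6%. The 4 with the Foxa3 C-terminal domain lay between 0 and 10.8%, so these point values did not overlap. The whole lists were ordered the same way, from 0.941 to 2.53% against 0.208 to 0.586%. In the windows, Wilson intervals of Foxa2-N3 (13.0 to 39.2%) and Foxa1-N3 (11.8 to 76.9%) overlapped those of all 4 on the other side. That of Foxa3-C1 (19.9 to 43.3%) overlapped only that of Foxa3-N1 (3.14 to 23.6%), and that of Foxa3-C2 (25.5 to 57.7%) overlapped none. The difference between the sides was not tested, and antibody and terminal domain cannot be told apart in it.

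**Figure D4:**
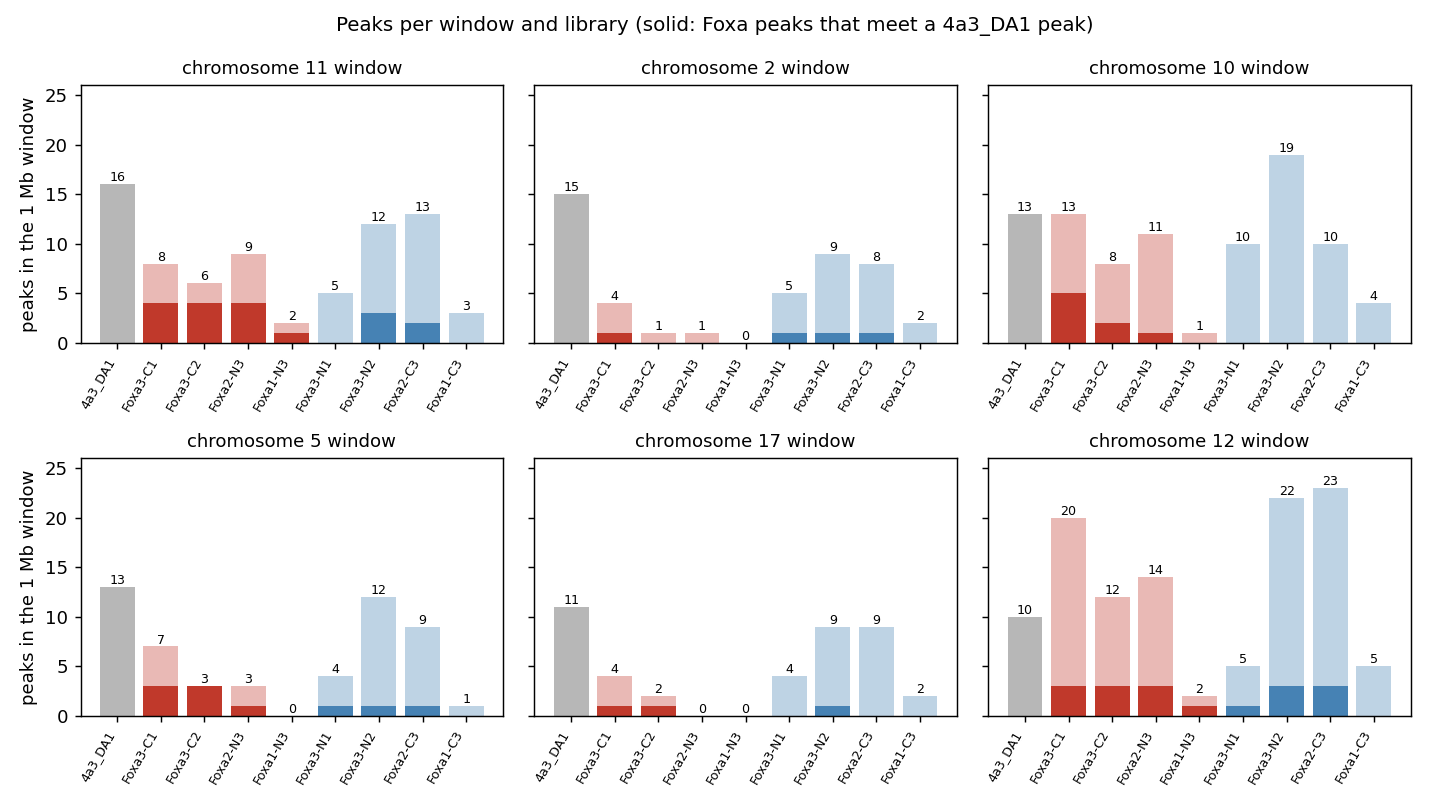
Bars give the number of peaks in each 1 Mb window for 4a3_DA1 (grey), the libraries with the Foxa3 N-terminal domain (red) and those with the Foxa3 C-terminal domain (blue), and the solid part of a Foxa bar gives the peaks that meet a 4a3_DA1 peak. Foxa3-N2 and Foxa2-C3, the longest lists, have 22 and 23 peaks on chromosome 12, of which 3 each are solid.

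The Foxa peaks that met 4a3_DA1 were wider than their neighbours in 3 libraries. Their median width was 970 bp in Foxa3-C1, against 465 bp for its other peaks in the windows. In Foxa3-C2 it was 883 against 423 bp, and in Foxa2-N3 845 against 446 bp. In Foxa3-N2 (500 against 440.5 bp), Foxa2-C3 (474 against 480 bp) and Foxa3-N1 (399 against 405 bp) the widths were close. Of the Foxa peaks in the windows, 11 were wider than 1000 bp, and all 11 met a 4a3_DA1 peak: 6 in Foxa3-C1, 3 in Foxa3-C2 and 1 each in Foxa2-N3 and Foxa3-N2. The whole lists held 99, 15, 22 and 106 peaks that wide, in the same order. How many of those met a 4a3_DA1 peak was not counted. Several of the 11 lay at the same place in different lists. A wider peak covers more sequence, and the part of this in the count was not tested. Rank went the same way as width in Foxa3-C1, Foxa3-C2 and Foxa2-N3. Of the 17 Foxa3-C1 peaks that met 4a3_DA1, 6 were in the top 1% of that list, and of the 13 Foxa3-C2 peaks 3 were. In the top 10% were 7 of the 17, 7 of the 13 and, in Foxa2-N3, 4 of the 9 meeting peaks. Other window peaks in the top 10% numbered 5, 5 and 1 in these libraries. In the 4 libraries with the Foxa3 C-terminal domain no peak that met 4a3_DA1 was in the top 10%, and 17 other peaks in the windows were. These were 8 each in Foxa3-N2 and Foxa2-C3 and 1 in Foxa1-C3. The top 10% holds 10% of any list, so few would be due among the 9, 7 and 3 meeting peaks of Foxa3-N2, Foxa2-C3 and Foxa3-N1.

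**Figure D5:**
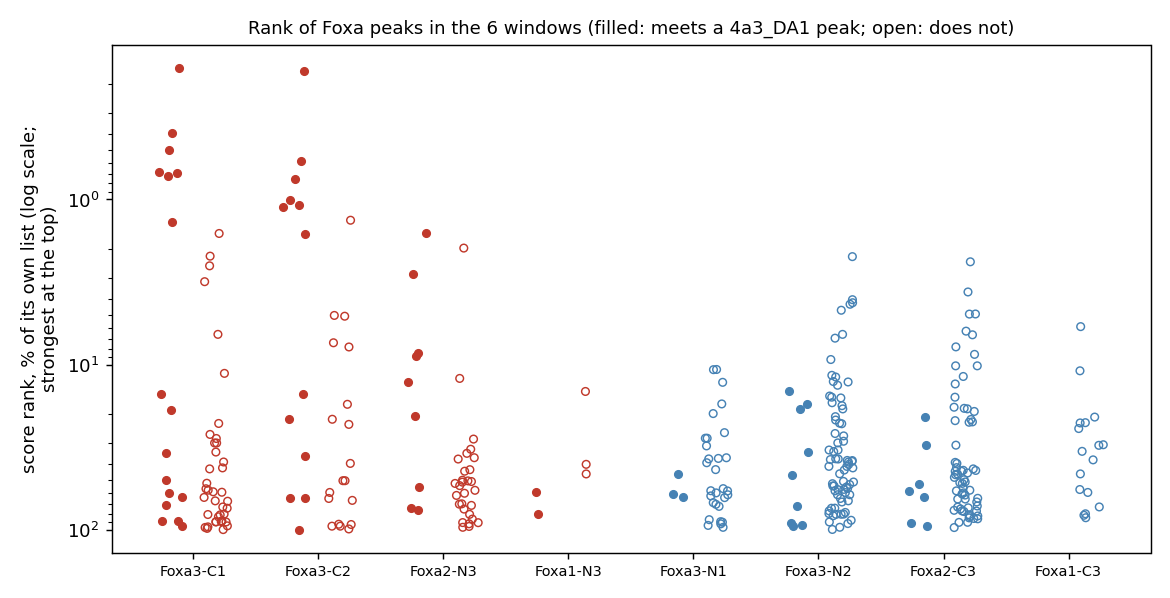
Each symbol is 1 Foxa peak of the 6 windows, placed by its score rank as a percent of its own list (log scale, strongest at the top), filled where it meets a 4a3_DA1 peak and open where it does not (red, Foxa3 N-terminal domain; blue, Foxa3 C-terminal domain). In Foxa3-C1, Foxa3-C2 and Foxa2-N3 the strongest peak is filled. In Foxa1-N3 and in each of the 4 libraries with the Foxa3 C-terminal domain it is open.

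In the windows, as in the whole lists, most Foxa peaks lay away from the 4a3_DA1 peaks, which covered only 16898 bp there. When peaks of the 8 lists that shared bases were joined, the windows held 134 regions, of which 18 met a 4a3_DA1 peak and 116 did not. Outside the windows 199 regions met one and 24666 did not. The choice of the windows raises the share inside, so neither share is a result about the windows. The 18 were of the Foxa3 antibody alone in 9 cases, of both kinds of antibody in 8 and of the Foxa1 or Foxa2 antibody alone in 1. Of the 116 others, 14 (12.1%) were of the Foxa3 antibody alone and 65 (56.0%) of the Foxa1 or Foxa2 antibody alone, close to the 8.47 and 61.7% of the 24666 regions elsewhere in the genome that met no 4a3_DA1 peak. The 199 regions outside the windows that met a 4a3_DA1 peak were of the Foxa3 antibody alone in 49.7% of cases, against 50.0% of the 18 inside. The median width of the 18 regions was 1028.5 bp, against 598 bp for those 199. Regions shared by most lists differed in number between windows. On chromosomes 2, 5, 10 and 17 no region was in more than 6 lists, and on chromosome 11 1 was in 7. The share of such regions over the genome was not counted. On chromosome 12, 4 regions were found in 7 of the 8 lists, and 3 of them lay away from the 4a3_DA1 peaks. One of these 3, chosen after its values were seen (55564532 to 55565211), had ranks of 103 in Foxa2-N3, 183 in Foxa3-C2 and 237 in Foxa3-C1, and of 283 in Foxa1-C3, 327 in Foxa2-C3, 698 in Foxa3-N2 and 818 in Foxa3-N1.

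The last comparison asked whether the windows held a larger part of the lists with the Foxa3 N-terminal domain than of those with the Foxa3 C-terminal domain. On chromosome 12 this was so. The number of peaks per 1000 peaks of the list was 2.65 for Foxa3-C1, 3.34 for Foxa3-C2, 2.68 for Foxa2-N3 and 2.09 for Foxa1-N3, against 0.656 in Foxa3-N1, 1.33 in Foxa3-N2, 1.68 in Foxa2-C3 and 1.04 in Foxa1-C3. The groups did not overlap, with means of 2.69 ± 0.510 and 1.18 ± 0.434 (SD, n = 4 constructs each). The difference was 0.95 on the log2(value + 0.5) scale (SE 0.22), with an adjusted p of 0.0113 by limma over 1854 windows of 1 Mb, of which 0.27% were called higher and 0.162% lower. The call did not hold in every setting. The adjusted p was 0.0633 with a pseudocount of 0.1, 0.581 when peaks under the pooled median score were dropped, and 0.0942, 0.116 and 0.124 without Foxa3-C1, Foxa3-C2 and Foxa3-N1. The Foxa1-N3 value rests on 2 peaks, which lay at the wide places of this window. Outside the wide places the groups overlapped, at 0 to 1.73 peaks per 1000 with the Foxa3 N-terminal domain and 0.525 to 1.46 with the Foxa3 C-terminal domain. The means there were 1.11 ± 0.762 and 1.01 ± 0.382 (SD, n = 4 constructs each). Foxa3-C1 peaks chose the wide places, so leaving them out takes peaks of that list by rule. The difference outside them was not tested. Antibody and terminal domain cannot be told apart in this comparison.

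In the other 5 windows the difference did not pass. On chromosome 11 the constructs with the Foxa3 N-terminal domain had 1.06 to 2.09 peaks per 1000, against 0.624 to 0.948 with the Foxa3 C-terminal domain. The log2 difference of 0.77 (SE 0.26) had an adjusted p of 0.159 by limma. Outside the 4 wide places of that window the ranges overlapped, at 0.531 to 1.05 and 0.544 to 0.802. Foxa3-C1 peaks chose those places, so leaving them out takes peaks of that list by rule. It took 4 peaks each of Foxa3-C1, Foxa3-C2 and Foxa2-N3, against 3 of Foxa3-N2 and 2 of Foxa2-C3. The overlap is therefore a description, and the difference outside the places was not tested. On chromosome 10 the difference was 0.58 (limma adjusted p = 0.271), with means of 1.78 ± 0.531 and 1.01 ± 0.271 (SD, n = 4 constructs each). On chromosome 2 it was -0.53 (limma adjusted p = 0.454) and on chromosome 17 -0.51 (limma adjusted p = 0.470), with lower means on the side of the Foxa3 N-terminal domain, at 0.250 and 0.272 peaks per 1000 against 0.550 and 0.535. On chromosome 5 the means were 0.584 and 0.529, with a log2 difference near 0 (-0.0013, limma adjusted p = 0.999). As a share of the list, all 6 windows together held 0.743% of Foxa3-C1, 0.890% of Foxa3-C2, 0.727% of Foxa2-N3 and 0.523% of Foxa1-N3, against 0.433% of Foxa3-N1, 0.502% of Foxa3-N2, 0.525% of Foxa2-C3 and 0.354% of Foxa1-C3. The Foxa1-N3 and Foxa2-C3 values are close, so the sides overlapped.

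The 3 other windows that held at least 10 4a3_DA1 peaks, on chromosomes 19, 3 and 13, are given for comparison only. Of their 46 peaks, 44 met a Foxa peak (95.7%), against 39 of 78 here. Foxa3-C1 was met by 42 of the 46 and Foxa3-N1, Foxa1-N3 and Foxa1-C3 by 0. The share over the whole list was 40.8%. This contrast was not tested.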

How the data were processed

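ChIP-seq peak lists of 9 libraries were used, each of 1 sample. Per the submitters' processing notes, the build was mm9 and the tools were bedtools 2.16.2, MACS2 2.1.0 and BWA 0.6.2, with no role or threshold stated. Each deposited list gives a score per peak, set by the authors' processing, of a kind that these sources leave unnamed. Scores were used to rank or filter peaks within a list, and in 1 alternative to drop Foxa peaks under the median of the 8 lists pooled, which takes scores as comparable between lists. Sequencing depth is unknown, so precision is limited by peak counts, and Wilson intervals at 95% cover counting error only.

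Peaks were assigned to windows of 1000000 bp by their midpoint, and peaks sharing 1 bp or more were taken to meet, with Python 3.11.15, pandas 2.3.3 and numpy 2.4.6. bedtools 2.31.1 gave the same number of meeting peaks in 8 of 8 lists. The 4 constructs with the Foxa3 N-terminal domain were compared with the 4 with the Foxa3 C-terminal domain by limma 3.58.1 (R 4.3.3) on log2(peaks per 1000 list peaks + 0.5) over all 1854 windows with a peak in 4 or more lists, with Benjamini-Hochberg adjustment and a threshold of 0.05. The step was checked on simulated data. Constructs stand in for replicates here, and p-values measure the spread between constructs.

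Named peaks were, per window, the 4a3_DA1 peak with the highest score, the one meeting most Foxa lists, the widest Foxa peak meeting one, and the Foxa peak ranking highest in its own list. Other peaks, and the wide places on chromosomes 11 and 12, were picked with their values in view. The windows, lists and tests were chosen with earlier results of these data known. No gene was assigned to a peak, since the annotation at hand is of another build. Alternatives changed the overlap rule, the score threshold, the list length, the pseudocount, the window filter and the constructs used.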

Additional observations from a re-analysis of the deposited data

Results flagged for a closer look

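Foxa1-C3 stood apart from the other 3 libraries that carry the Foxa3 C-terminal domain in the share of its window peaks that met a 4a3_DA1 peak. The share was 0%, from 17 peaks, against 9.09% in Foxa3-N1, 10.8% in Foxa3-N2 and 9.72% in Foxa2-C3. The Wilson upper bound for Foxa1-C3 was 18.4%, which takes in the shares of the other 3. In all, 18 groups of 4 values were examined, and chance alone flags about 1 group in 20.

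In the chromosome 5 window the difference between terminal layouts had opposite signs by DNA-binding domain. Among proteins with the Foxa3 DNA-binding domain, Foxa3-C1 had 0.929 and Foxa3-C2 0.835 peaks per 1000 list peaks, against 0.525 in Foxa3-N1 and 0.725 in Foxa3-N2. Among the others, Foxa1-N3 had 0 and Foxa2-N3 0.574, against 0.208 in Foxa1-C3 and 0.656 in Foxa2-C3. The layout differences were 0.402 peaks per 1000 apart. In the chromosome 17 window they were 0.546 apart: Foxa3-C1 had 0.531 and Foxa3-C2 0.556, against 0.525 in Foxa3-N1 and 0.544 in Foxa3-N2, while Foxa1-N3 and Foxa2-N3 had 0, against 0.416 in Foxa1-C3 and 0.656 in Foxa2-C3. Neither difference was tested, and a value of 0 in Foxa1-N3 comes from a list of 956 peaks. With the Foxa3 DNA-binding domain the chromosome 17 values were nearly equal, so the opposite sign there means little. All measures behind the 18 groups above were scanned for this sign pattern, and chance alone can give it.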

How the results depend on the processing

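The count of 4a3_DA1 window peaks that met a Foxa peak, 39 of 78, depended on the rule for meeting. It was 17 with midpoints within 200 bp, 68 with edges at most 1 kb apart and 11 with the Foxa midpoint inside the 4a3_DA1 peak. It was 24 with Foxa peaks above the pooled median score and 18 with the strongest 956 peaks of each list. Without each construct in turn it ran from 26 (without Foxa3-C1) to 39. The 60 of 336 Foxa peaks that met a 4a3_DA1 peak became 33 with midpoints within 200 bp, and 23 of 57 with the strongest 956 peaks of each list. By limma, 8 windows of 1 Mb were called by terminal layout, against 0 with a pseudocount of 0.1 (231 at an unadjusted p under 0.05, median log2 difference over all windows -0.30) and 0 with peaks above the pooled median score (207 at an unadjusted p under 0.05, median -0.25). In the reported limma fit 270 of 1854 windows had an unadjusted p under 0.05. Of these, 93 were higher with the Foxa3 N-terminal domain and the rest lower, and the median over all windows was -0.10. Without each construct in turn 2 (without Foxa3-C1 or Foxa3-C2) to 14 (without Foxa1-N3) windows were called, and 9 with matched constructs as a block. The adjusted p of the chromosome 12 window by limma ran from 0.00729 to 0.581 over its alternatives. The chromosome 5 difference, near 0, changed sign with a pseudocount of 2 (0.021), and without Foxa1-N3 (0.33), Foxa3-N1 (0.01), Foxa3-N2 (0.09) or Foxa2-C3 (0.07). Without each construct in turn it ran from -0.17 to 0.33. Of the differences in the other 5 windows, none changed sign under these alternatives. Peak lists hold no depth, so a peak missing from a list may lie under its threshold.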
